A study of Callithrix jacchus with 20 samples.

Results

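The comparison described here set cells at the pre-mesendoderm (pre-ME) step with Activin A (ActA) against the cjiPSCs they were made from, in the culture medium cjPSCM. Its members are 4 of the 20 RNA-seq libraries of the study, 2 replicates of cjiPSCs and 2 of pre-ME with ActA, chosen by their labels, and all 25102 genes of the count table were considered. Both groups are the common marmoset (Callithrix jacchus) induced pluripotent stem cell line DPZ_cjiPSC#2, which had been reprogrammed from foetal fibroblasts, so differences between lines were not measured. The cjiPSCs had been kept in cjPSCM, a medium with 1 µM of the GSK3 inhibitor CHIR99021 (CHIR), an SRC inhibitor, a tankyrase inhibitor that damps WNT signalling, vitamin C, LIF, TGFβ and FGF2. For pre-ME, cells were dissociated and replated on vitronectin for 24 h with 3 µM CHIR, 100 ng/ml ActA and a ROCK inhibitor in a medium based on RPMI and B27. The groups thus differ in the base medium, the factors withdrawn, the replating and the ROCK inhibitor as well as in CHIR and ActA, and in this comparison these cannot be told apart. The cells were unsorted, so fewer cells of a type and less RNA per cell cannot be told apart either. Used beside it were 2 libraries of pre-ME made from cjPSCM cultures with CHIR and no ActA, and 4 libraries of the same ActA induction and its starting cells from cultures in TESR medium.

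Pre-ME induction imitates signals that act on the embryo's posterior epiblast. CHIR blocks GSK3, which lets β-catenin accumulate and switch on WNT target genes with the factors of the TCF/LEF family. Many of these targets are inhibitors of the pathway and form its feedback, and others are the caudal (CDX) and HOX genes that pattern the posterior body. ActA binds Activin receptors, which phosphorylate SMAD2 and SMAD3, and the same branch carries the signal of NODAL. Together the 2 signals are known for inducing primitive streak and mesendoderm, and a brief exposure to them is used to prepare pluripotent cells for induction to primordial germ cell-like cells.

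Depth was 14256191 and 7910911 reads on genes in replicates 1 and 2 of cjiPSCs and 14055654 and 8193936 in pre-ME with ActA. Levels below are normalised counts, which are counts divided by a size factor of the library, and are given for replicate 1 and then replicate 2. The cjiPSC replicates stood further apart than those of any other group of the study. Among genes whose mean level was 10 or more, 13.99% differed by more than 2-fold between the cjiPSC replicates and 1.36% between the replicates of pre-ME with ActA, against 0.356% to 5.75% in the other 8 groups. On log2 levels cjiPSC replicate 2 lay closer to both pre-ME libraries (distances of 98.2 and 98.7) than to cjiPSC replicate 1 (122), whereas the pre-ME libraries lay 56.7 apart. The share of reads that fell in no annotated gene was 12.2% and 19.3% in cjiPSCs and 20.5% and 20.1% in pre-ME with ActA.

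Of all genes tested 880 were more than 2-fold higher in cjiPSC replicate 1 and 2245 in replicate 2, and 2 of the gene lists used here leaned opposite ways. In a list of 35 endothelial genes, chosen after their values had been seen, 31 of 34 tested were higher in replicate 1, and 14 of them by more than 2-fold. Their summed level was 5742 CPM (counts scaled to a common library total) in cjiPSC replicate 1 and 3496 CPM in replicate 2, against 1629 and 1755 CPM in pre-ME with ActA. In a list of posterior neural and neural border genes 15 of 24 tested were more than 2-fold higher in cjiPSC replicate 2, and their summed level was 294 CPM in replicate 1, 795 CPM in replicate 2 and 916 and 809 CPM in pre-ME with ActA. The lists thus lie on opposite sides of the line of equal levels in the plot of both cjiPSC libraries, but they hold few of the genes that differ and do not describe the difference as a whole. Its part in each result was not tested. Of 94 called genes named below, 51 had a fold that moved by more than 1.5-fold when 1 of the cjiPSC libraries was left out, and 13 when 1 of the pre-ME libraries was. Values without a library stand beside part of these results, and not beside genes with very few counts, whose fitted values depend on the prior count.

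**Figure D1:**
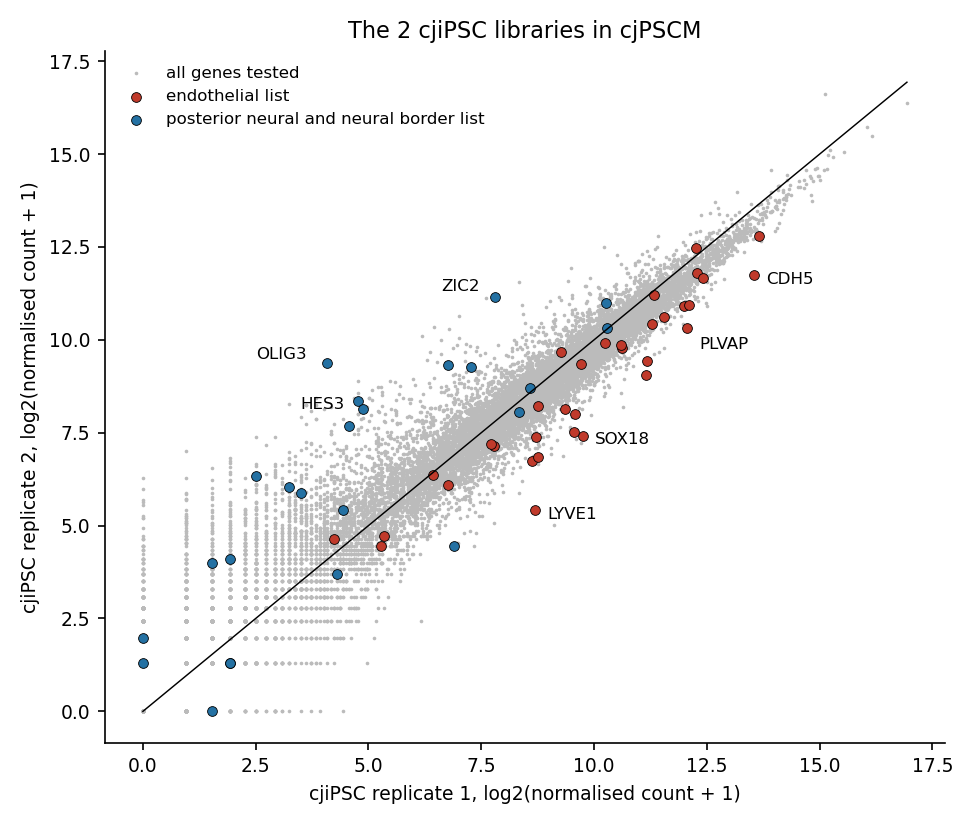
Each dot is 1 of 15797 genes, with log2(normalised count + 1) in cjiPSC replicate 1 on the x axis and in replicate 2 on the y axis, and the line marks equal levels. Endothelial genes (red) lie mostly below the line and posterior neural and neural border genes (blue) mostly above it.

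The check of the labels against defining markers was as follows. POU5F1, the core pluripotency factor OCT4, was at 2323 and 2926 in cjiPSCs and at 2914 and 3035 in pre-ME with ActA. NANOG was at 1760.5 and 1300.0 in cjiPSCs and 1406 and 1581 in pre-ME, and SOX2 at 3491 and 5071 and at 3378 and 3121. All 3 were thus high in each of the 4 libraries, and none differed between the groups past the thresholds. The 7 pluripotency markers summed to 1168 and 1873 CPM in cjiPSCs and to 1689 and 1686 CPM in pre-ME with ActA, with TDGF1 at 0 counts in all 4 libraries. Of the 7 primitive streak markers, TBXT (brachyury) had 3 counts or fewer over the 4 libraries, and the 7 summed to 3.79 and 14.4 CPM in cjiPSCs and 19.1 and 8.30 CPM in pre-ME with ActA. The defining marker of a streak or mesendoderm state was therefore at or near 0 after 24 h in this medium. Among the streak markers LHX1 was at 0.912 and 12.6 CPM in cjiPSCs and 11.9 and 2.56 CPM in pre-ME. Without LHX1 the streak sums were 2.88 and 1.77 CPM against 7.26 and 5.74 CPM. Markers of hypoblast and endoderm summed to 274 and 223 CPM in cjiPSCs and 64.5 and 53.6 CPM in pre-ME, those of fibroblasts to 168 and 211 CPM against 160 and 141 CPM, and those of amnion to 52.7 and 38.4 CPM against 79.3 and 85.6 CPM. The hypoblast and endoderm sums rested mostly on GATA6, at 210.1 and 190.4 CPM in cjiPSCs and 39.1 and 30.4 CPM in pre-ME, and without it they were 64.04 and 32.6 CPM against 25.3 and 23.2 CPM. The amnion sums rested on GATA3, and without it they were 15.9 and 13.3 CPM against 14.3 and 13.9 CPM. Among fibroblast markers COL1A1 was at 6.45 and 110 CPM in cjiPSCs and 105 and 66.9 CPM in pre-ME. Without COL1A1 the fibroblast sums were 162 and 101 CPM against 55.1 and 74.3 CPM.

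The test was edgeR's quasi-likelihood fit to the counts of all 20 libraries, run on the 15797 genes left by the filter on low counts. Its spread was estimated over all 10 groups, of which the cjiPSCs in cjPSCM had the replicates furthest apart. Called genes are those whose adjusted p was under 0.05 and whose log2 fold change exceeded 2 in size. In pre-ME with ActA 224 genes were called higher (1.42% of those tested) and 259 lower (1.64%). By the adjusted p alone 1172 genes (7.42%) were higher and 1630 (10.3%) lower, and the median log2 fold change over all genes tested was near 0. Of the called genes 224 of 224 and 257 of 259 had libraries that did not overlap between the groups, where the shares over all genes tested were 25.1% higher and 26.7% lower. The counts depended on the cjiPSC library used. Without cjiPSC replicate 1 they were 130 higher and 152 lower, and without cjiPSC replicate 2 they were 962 and 389. Without pre-ME replicate 1 they were 136 and 172.

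**Figure D2:**
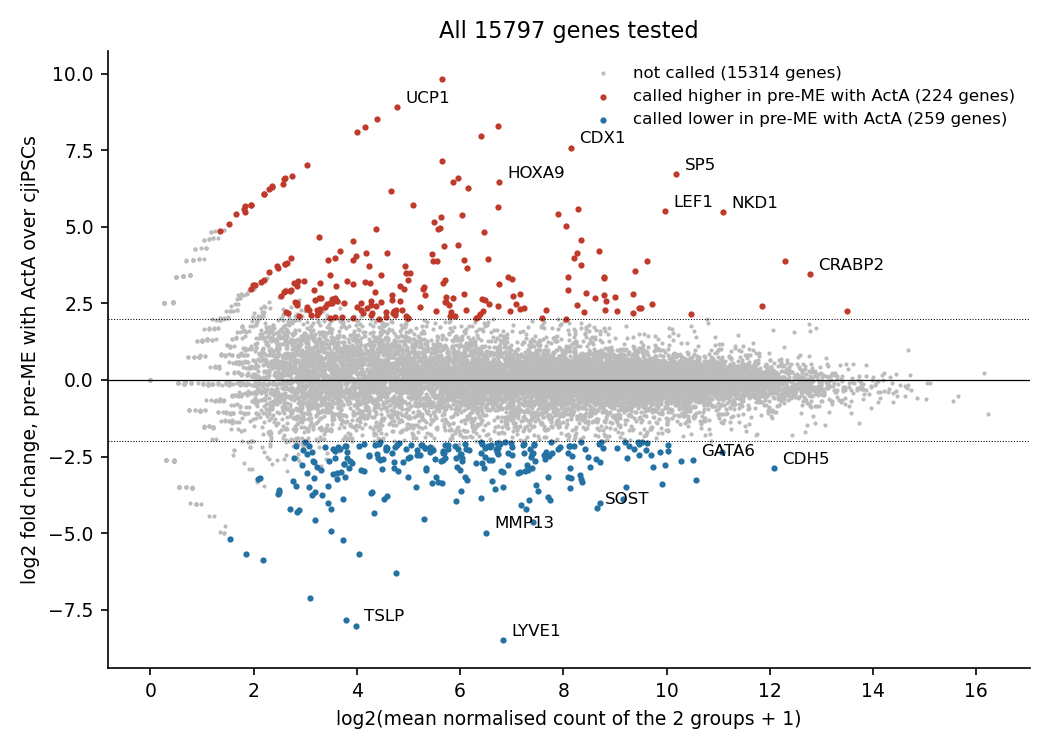
Log2 fold change of pre-ME with ActA over cjiPSCs (y axis) against the log2 mean normalised count of both groups (x axis) for 15797 genes, with called genes in red and blue and dotted lines at the fold threshold. The 224 called higher reach further from 0 among well-expressed genes (SP5, LEF1, NKD1) than the 259 called lower.

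Genes of the WNT/β-catenin pathway that are its targets or feed back on it moved mostly upward. Of 28 tested 12 were called higher and none lower, 17 were higher and 2 lower by the adjusted p alone, and the median log2 fold change was 1.41, where the median over all genes tested was near 0. Without cjiPSC replicate 1 the calls were 10 and without replicate 2 they were 13. SP5, a zinc finger factor and direct target of the pathway, was at 20.7 and 23.7 in cjiPSCs and 2743 and 1871 in pre-ME with ActA, a log2 fold change of 6.72 ± 0.28 (SE, adjusted p = 5.22e-10). NKD1, an inhibitor that binds Dishevelled, went from 34.9 and 175 to 5056 and 3505, with a log2 fold change of 5.47 ± 0.45 (SE, adjusted p = 8.64e-07). NOTUM, a secreted enzyme that inactivates WNT proteins, went from 11.3 and 10.4 to 549 and 379, with a log2 fold change of 5.42 ± 0.26 (SE, adjusted p = 2.39e-09). In each of these genes both pre-ME libraries were far above both cjiPSC libraries, and NKD1 also differed between the cjiPSC libraries, with log2 fold changes of 4.65 and 6.93 without replicates 1 and 2.

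The DNA-binding partners of β-catenin differed among themselves. LEF1 was at 22.6 and 71.2 in cjiPSCs and 2202 and 1718 in pre-ME, a log2 fold change of 5.51 ± 0.35 (SE, adjusted p = 7.27e-08), and of 4.82 and 6.43 without cjiPSC replicates 1 and 2. TCF7 rose from 19.8 and 28.2 to 158 and 132, a log2 fold change of 2.65 ± 0.29 (SE, adjusted p = 1.19e-05). TCF7L1 and TCF7L2 were not called, with log2 fold changes of 0.09 (adjusted p = 0.805) and -0.03 (adjusted p = 0.911). LGR5, a receptor for R-spondins, rose from 11.3 and 8.89 to 134 and 125 (log2 fold change 3.65 ± 0.44 SE, adjusted p = 3.2e-05), and DKK1, a secreted antagonist of WNT receptors, from 182 and 141 to 1206 and 1064 (log2 fold change 2.82 ± 0.34 SE, adjusted p = 3.14e-05). AXIN2 and ZNRF3, a scaffold of the destruction complex and a ligase that removes WNT receptors, passed the adjusted p with log2 fold changes of 1.61 ± 0.14 (SE) and 1.70 ± 0.16 (SE), under the fold threshold. AXIN2 was already at 672 and 808 in the cjiPSCs. RNF43, the partner ligase of ZNRF3, had a log2 fold change of 2.57 ± 0.74 (SE, adjusted p = 0.0231) at levels of 0 and 7.41 in cjiPSCs and 12.5 and 25.3 in pre-ME, and this call was lost without cjiPSC replicate 1, where the log2 fold change was 1.27 (adjusted p = 0.295), and without pre-ME replicate 2. WIF1, a secreted WNT inhibitor, was called at 5.84 and 5.62 in pre-ME and 0 counts in cjiPSCs, at least 3.33-fold higher, a call lost without cjiPSC replicate 1 and without either pre-ME library.

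Pre-ME without ActA shares its control libraries with the comparison above, so its values are set beside it and are no further evidence. Against cjiPSCs 333 genes (2.11%) were called higher and 499 (3.16%) lower without ActA, and 11 of 28 WNT targets higher and 2 lower. In that group SP5 was at 1763 and 1444, NKD1 at 2737 and 1763, MSX1 at 399 and 392 and DKK1 at 870.1 and 956. The direct comparison of pre-ME with against without ActA gave log2 fold changes of 0.51 (adjusted p = 0.0688) for SP5, 0.91 (adjusted p = 0.0756) for NKD1, 0.37 (adjusted p = 0.268) for MSX1 and 0.30 (adjusted p = 0.507) for DKK1, none past the thresholds. For LEF1 and NOTUM it gave 2.15 (adjusted p = 6.5e-05) and 2.22 (adjusted p = 1.05e-06), so these 2 genes were higher with ActA. In that comparison 225 genes (1.42%) were called higher and 109 (0.69%) lower with ActA, of 15797.

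**Figure D3:**
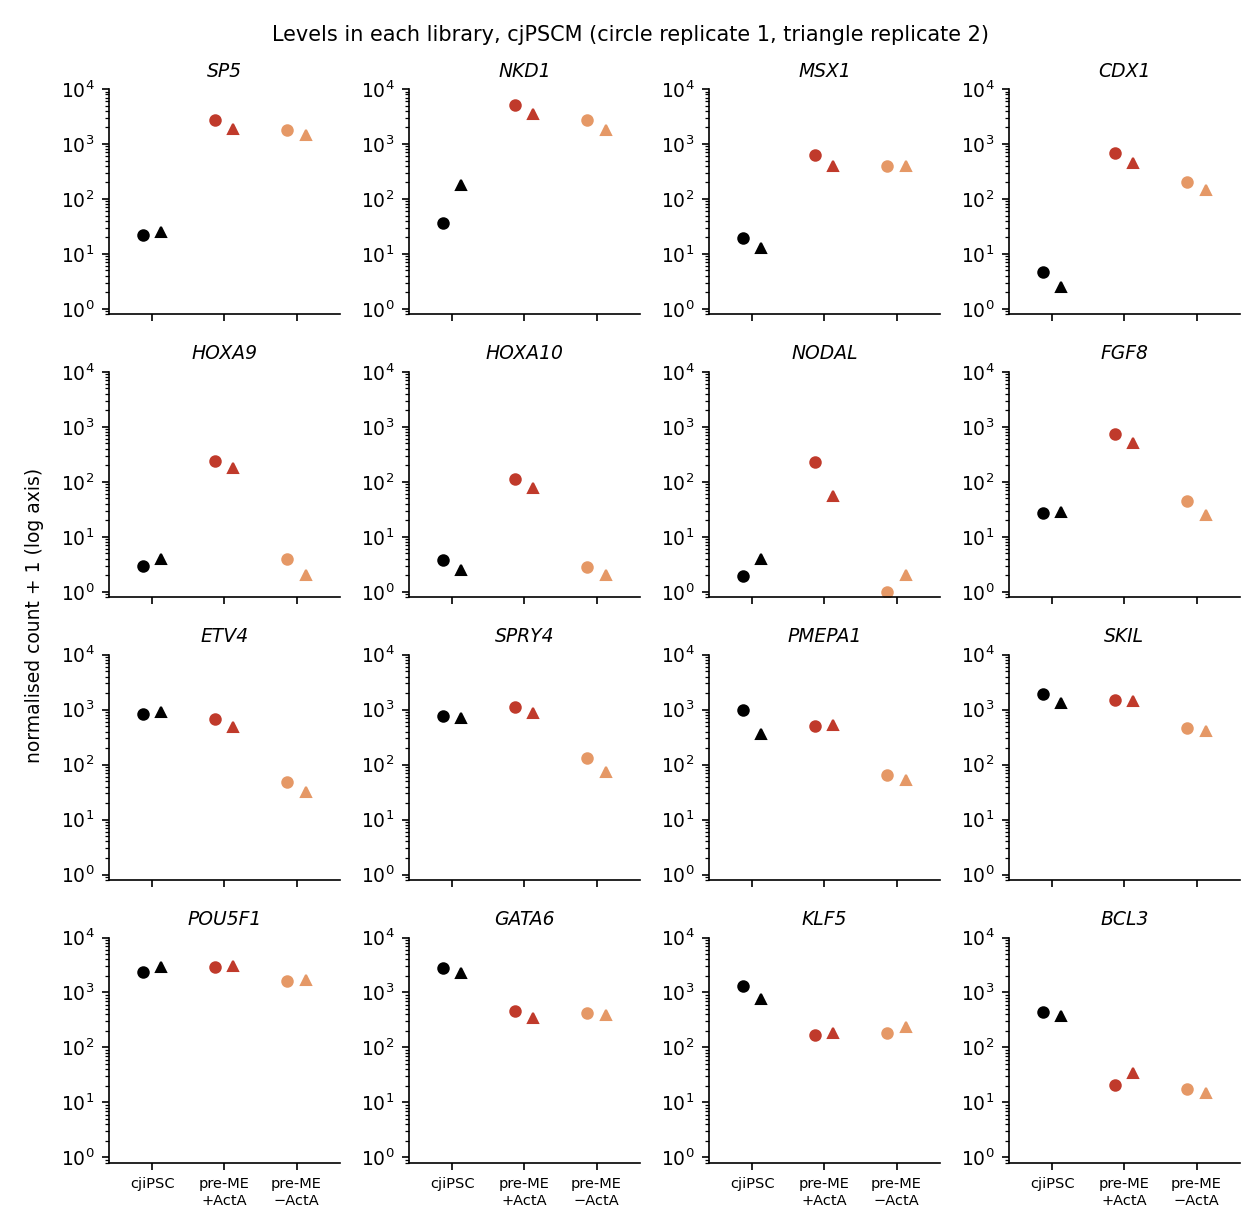
Normalised counts + 1 (log axis) of 16 genes in the cjiPSC, pre-ME with ActA and pre-ME without ActA libraries of cjPSCM, with replicate 1 as a circle and replicate 2 as a triangle. SP5, NKD1, MSX1 and CDX1 are high in both kinds of pre-ME, HOXA9, HOXA10, NODAL and FGF8 are high in the pre-ME libraries with ActA and low in the other 4, and ETV4, SPRY4, PMEPA1 and SKIL are lowest in the pre-ME libraries without it.

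The caudal and HOX genes named here as called higher were CDX genes, members of the HOXA cluster and a pair of HOXD genes at low levels. Not every called gene of this list is named. Of 42 listed genes 40 were in the table and 23 tested, 13 were called higher and none lower, and the median log2 fold change was 3.11 (2.28 with the folds of genes at 3 counts or fewer in 1 group taken from their counts). Without cjiPSC replicate 1 or without pre-ME replicate 1 the calls were 7. CDX1 and CDX2, caudal homeobox factors that act upstream of HOX genes, went from 3.77 and 1.48 to 678 and 449 and from 0 and 1.48 to 197 and 139. CDX1 had a log2 fold change of 7.58 ± 0.40 (SE, adjusted p = 6.98e-09). CDX2, with 1 count in the cjiPSCs, was 304-fold (95% counting interval 54.3 to 12060.0) higher, and the test gave it an adjusted p of 9.66e-07. CDX4 went from 0.942 and 0 to 47.6 and 49.2, and was 83.6-fold (95% counting interval 14.6 to 3338) higher.

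Within the HOXA cluster the anterior member HOXA2 was already present in cjiPSC replicate 2. HOXA2 was at 4.71 and 62.3 in cjiPSCs and 158 and 107 in pre-ME with ActA, with a log2 fold change of 2.16 ± 0.56 (SE, adjusted p = 0.0141). It lost its call without cjiPSC replicate 1, with a log2 fold change of 1.14 (adjusted p = 0.0469), and without pre-ME replicate 1. Without cjiPSC replicate 2 the log2 fold change was 4.79 (adjusted p = 1.39e-06). The posterior members HOXA9, HOXA10 and HOXA11 started from close to 0 in both cjiPSC libraries, whereas HOXA13 was at 11.9 in replicate 2. HOXA9 went from 1.88 and 2.96 to 243 and 178 (log2 fold change 6.46 ± 0.46 SE, adjusted p = 2.4e-07), HOXA10 from 2.83 and 1.48 to 112 and 77.2 (log2 fold change 5.33 ± 0.60 SE, adjusted p = 1.93e-05) and HOXA13 from 1.88 and 11.9 to 161 and 176 (log2 fold change 4.83 ± 0.51 SE, adjusted p = 1e-05). For HOXA13 the values without cjiPSC replicates 1 and 2 were 3.84 and 6.39. HOXA11 was at 0.942 and 0 in cjiPSCs and 18.4 and 15.4 in pre-ME, and was 29.99-fold (95% counting interval 5.02 to 1220.0) higher. HOXA3, HOXA7, HOXA11, HOXD1 and HOXD3 were called at levels of at most 35.9 and each lost the call without cjiPSC replicate 1 and without pre-ME replicate 1, HOXD1 also without pre-ME replicate 2 and HOXD3 without any 1 of the 4 libraries.

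HOX genes of the other clusters were low in both groups. HOXB2 was at 41.4 and 41.5 in cjiPSCs and 25.9 and 42.1 in pre-ME with ActA, a log2 fold change of -0.31 (adjusted p = 0.635). HOXB9 was at 3.77 and 5.93 in cjiPSCs and 2.50 and 0 in pre-ME, and HOXC6 had no count in pre-ME with ActA. HOXD1 had no count in cjiPSCs and 11.7 and 8.43 in pre-ME, and was at least 6.06-fold higher against a floor of 3 counts over both cjiPSC libraries. HOXA5, between HOXA3 and HOXA7 in the cluster, had 11 counts in pre-ME replicate 1, 0 in the other 3 libraries, and was not tested.

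Without ActA 8 of the 23 caudal and HOX genes were called higher against the same cjiPSCs, and with against without ActA 6 were called higher and none lower. HOXA9 was at 2.95 and 0.991 without ActA and HOXA10 at 1.77 and 0.991, and HOXA11 had no count. With against without ActA the log2 fold changes were 6.51 (adjusted p = 1.73e-07) for HOXA9 and 5.90 (adjusted p = 6.61e-06) for HOXA10. HOXA13 was at 30.7 and 37.6 without ActA, above both cjiPSC libraries with a log2 fold change of 2.53 (adjusted p = 0.00381), and was still higher with ActA, by 2.29 (adjusted p = 0.000455). CDX1 without ActA reached 199 and 147, and CDX2 27.7 and 29.7, both above the cjiPSCs and both lower than with ActA, by 1.68 (adjusted p = 0.000116) and 2.54 (adjusted p = 0.000116) on the log2 scale.

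Among primitive streak and mesendoderm genes 6 of 23 tested were called higher and 1 lower, 7 were higher and 6 lower by the adjusted p alone, and the median log2 fold change was 0.38. The higher calls were 5 without cjiPSC replicate 1 and 8 without replicate 2. The 6 were SP5, NODAL, FGF8, EVX1, NKX1-2 and EOMES. EVX1, a homeobox gene of the posterior streak, went from 9.42 and 85.97 to 904 and 642 (log2 fold change 4.21 ± 0.55 SE, adjusted p = 6.97e-05), and NKX1-2, a gene of the caudal epiblast, from 22.6 and 203 to 1303 and 1142 (log2 fold change 3.57 ± 0.52 SE, adjusted p = 0.000187). Both were much higher in cjiPSC replicate 2 than in replicate 1, and both kept the call without either of them, at 6.35 (adjusted p = 6.27e-07) and 5.75 (adjusted p = 3.67e-08) without cjiPSC replicate 2 and at 3.21 and 2.62 without replicate 1. EOMES, a T-box factor of the anterior streak, was at 4.71 and 1.48 in cjiPSCs and 39.2 and 22.5 in pre-ME, with 3.19 ± 0.73 (SE, adjusted p = 0.00591), and lost the call without cjiPSC replicate 1, at 4.38 (adjusted p = 0.0537), and without pre-ME replicate 1. MIXL1 was at 10.4 and 5.93 in cjiPSCs and 19.2 and 11.2 in pre-ME and was not called, with a log2 fold change of 0.90 (adjusted p = 0.22). GSC, a marker of the organiser region, had 4 counts in pre-ME replicate 1 and 0 in the other 3 libraries, and MESP1 had a log2 fold change of 0.60 (adjusted p = 0.465). GATA6, a factor of primitive endoderm and mesendoderm, was the gene called lower. It fell from 2821 and 2232 to 459 and 349.7, a log2 fold change of -2.62 ± 0.28 (SE, adjusted p = 9.98e-06).

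In the NODAL/Activin pathway 4 of 28 genes tested were called higher and 1 lower, 6 were higher and 4 lower by the adjusted p alone, and the median log2 fold change was -0.11. The higher calls were 2 without cjiPSC replicate 1, and the lower calls were 3 without replicate 2. The ligand NODAL was at 0.942 and 2.96 in cjiPSCs and 224 and 53.4 in pre-ME with ActA, and was 92.7-fold (95% counting interval 31.4 to 452) higher with an adjusted p of 0.000186. The pre-ME replicates also differed from each other in this gene. FST, the Activin-binding inhibitor follistatin, was at 488 and 1888 in cjiPSCs and 6702 and 5594 in pre-ME, with 2.41 ± 0.39 (SE, adjusted p = 0.00048), and fell under the fold threshold without cjiPSC replicate 1, at 1.74 (adjusted p = 0.000241), and was at 3.65 (adjusted p = 8.55e-08) without replicate 2. INHBE, a subunit of activin E, was at 3.34 and 4.21 in pre-ME with no count in cjiPSCs, and its call was lost without cjiPSC replicate 1 and without either pre-ME library. GDF3, a ligand of the family, fell from 855 and 283 to 60.9 and 71.6 (log2 fold change -3.11 ± 0.43 SE, adjusted p = 0.000123), and was at -2.07 (adjusted p = 0.000794) without cjiPSC replicate 1. The Activin receptors and the SMADs that carry the signal were not called. The log2 fold changes were -0.99 (adjusted p = 9.46e-05) for the receptor ACVR1B, 0.56 (adjusted p = 0.0653) for the receptor ACVR2B, and -0.29 and 0.01 for SMAD2 and SMAD3 (adjusted p = 0.143 and 0.965).

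PMEPA1, SKIL and SMAD7, feedback genes of this pathway, did not pass both thresholds against cjiPSCs. All were lower in pre-ME without ActA than with it. The cjiPSC medium contained TGFβ, and its part in these levels was not tested. Other members of the list, such as FST, were called higher against cjiPSCs, as given above, and LEFTY1 and LEFTY2 had no entry in the count table. With against without ActA 5 of 28 genes of the list were called higher and none lower. By the adjusted p alone 13 were higher and 2 lower. PMEPA1 was at 967 and 353 in cjiPSCs, 512 and 531 in pre-ME with ActA and 63.1 and 50.5 without it. Its log2 fold change against cjiPSCs was -0.34 (adjusted p = 0.499), with -0.90 (adjusted p = 0.0031) without cjiPSC replicate 2, and with against without ActA 3.16 (adjusted p = 3.71e-05). SKIL was at 1940.4 and 1297, 1472 and 1462 and 459 and 410.1, with -0.13 (adjusted p = 0.694) against cjiPSCs and 1.73 (adjusted p = 5.17e-05) against pre-ME without ActA. SMAD7, an inhibitory SMAD, rose from 365 and 209 to 847 and 638, a log2 fold change of 1.37 (adjusted p = 0.000263) under the fold threshold, and was at 119.7 and 134 without ActA. NODAL was at 0 and 0.991 without ActA, with a difference of 8.19 (adjusted p = 7.01e-05) between the 2 kinds of pre-ME.

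In the FGF/ERK list 3 of 30 genes tested were called higher and 1 lower, 7 were higher and 4 lower by the adjusted p alone, and the median log2 fold change was 0.37. FGF8, a ligand of the streak, went from 26.4 and 26.7 to 730.1 and 509.8 (log2 fold change 4.56 ± 0.35 SE, adjusted p = 5.23e-07) and FGF18 from 1.88 and 5.93 to 44.2 and 32.3 (log2 fold change 3.44 ± 0.55 SE, adjusted p = 0.000597). FGF18 was at 2.73 and 4.29 without cjiPSC replicates 1 and 2. Without ActA FGF8 was at 43.6 and 23.8 and FGF18 at 1.77 and 0.991, neither past the test against the cjiPSCs (adjusted p = 0.408 and 0.304), and with against without ActA the differences were 4.13 (adjusted p = 6.68e-07) and 4.61 (adjusted p = 0.000101). IL17RD, a membrane inhibitor of FGF signalling, went from 156 and 369 to 1601 and 1240.1 (log2 fold change 2.49 ± 0.31 SE, adjusted p = 4.33e-05), and was at 1.98 (adjusted p = 0.000265) without cjiPSC replicate 1. SPRED3, an inhibitor of the RAS step, fell from 717 and 642 to 112 and 111 (log2 fold change -2.59 ± 0.21 SE, adjusted p = 7.12e-07). ETV4, DUSP6 and SPRY4, ETS factor and feedback genes downstream of ERK, did not pass the thresholds against cjiPSCs. The cjiPSC medium contained FGF2, and its part in these levels was not tested. The immediate early genes EGR1 and FOS of this list did pass the adjusted p. EGR1 rose from 841 and 149.7 to 1849 and 1380.5 (log2 fold change 1.68, adjusted p = 0.0145) and FOS from 164 and 40.02 to 428 and 249.98 (1.69, adjusted p = 0.0189), under the fold threshold, and without cjiPSC replicate 1 they were called at 3.47 (adjusted p = 2.22e-06) and 3.13 (adjusted p = 0.00174). ETV4 was at 825 and 919 in cjiPSCs and 676 and 492 in pre-ME (log2 fold change -0.56, adjusted p = 0.0967), DUSP6 at 2763 and 3019.5 in cjiPSCs and 2969.6 and 2675 in pre-ME (-0.02, adjusted p = 0.96) and SPRY4 at 752 and 710.0 in cjiPSCs and 1116 and 886 in pre-ME (0.47, adjusted p = 0.104). Without ActA they were at 46.6 and 30.7, 936 and 822 and 132 and 72.3, and the log2 fold changes with against without ActA were 3.86 (adjusted p = 2.37e-07), 1.66 (adjusted p = 4.68e-06) and 3.24 (adjusted p = 1.73e-07). ETV5 was at 457 and 672 in cjiPSCs, 441 and 355 in pre-ME with ActA and 62.5 and 26.7 without it, and was thus also lowest without ActA.

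Ligands and inhibitors of BMP signalling went both ways, with 3 of 29 called higher and 2 lower, 8 higher and 2 lower by the adjusted p alone, and a median log2 fold change of 0.10. Without pre-ME replicate 2 the calls were 5 higher and 1 lower. NOG, which binds BMPs outside the cell, rose from 44.3 and 54.8 to 647 and 344 (log2 fold change 3.37 ± 0.32 SE, adjusted p = 3.51e-06), and MSX1, a homeobox target of BMP and WNT signals, from 18.8 and 11.9 to 632 and 395 (log2 fold change 5.02 ± 0.34 SE, adjusted p = 1.21e-07). BMP7 was 18.5-fold (95% counting interval 6.03 to 92.1) higher at levels of 0.942 and 2.96 in cjiPSCs and 44.2 and 11.2 in pre-ME, and lost the call without cjiPSC replicate 1, at 3.36 (adjusted p = 0.0896), and without pre-ME replicate 1, at 2.62 (adjusted p = 0.203). BMP2 fell from 51.8 and 102 to 14.2 and 9.83 (log2 fold change -2.58 ± 0.59 SE, adjusted p = 0.00628), a call lost without either pre-ME library. GDF7 fell from 226 and 96.4 to 29.2 and 22.5 (log2 fold change -2.62 ± 0.35 SE, adjusted p = 9.68e-05), and was at -1.83 (adjusted p = 0.000944) without cjiPSC replicate 1. BMP4 itself and the target genes ID1 and ID3 were not called, with log2 fold changes of -0.08, -0.41 and -0.58 (adjusted p = 0.897, 0.262 and 0.0533). Of the WNT ligands 14 were tested, with a median of 0.60. WNT7A rose from 0.942 and 11.9 to 147 and 84.3 (log2 fold change 4.41 ± 0.65 SE, adjusted p = 0.000205) and WNT2 fell from 203 and 218 to 25.03 and 36.5 (log2 fold change -2.78 ± 0.47 SE, adjusted p = 0.000679), and 12 were not called, while 3 were called higher without cjiPSC replicate 2. WNT7A was at 6.80 (adjusted p = 1.16e-05) without cjiPSC replicate 2 and at 3.33 without replicate 1.

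Genes that handle retinoic acid, a posteriorising signal made from vitamin A, were called in both directions, with a median log2 fold change of -0.29. CRABP2, which carries retinoic acid to its receptors, went from 195 and 2225 to 14576 and 11225 (log2 fold change 3.46 ± 0.62 SE, adjusted p = 0.00101). Its cjiPSC libraries were far apart, and its log2 fold change was 6.04 (adjusted p = 2.8e-09) without replicate 2 and 2.57 without replicate 1. CYP26B1, which degrades it, went from 32.03 and 37.1 to 279.5 and 166 (log2 fold change 2.73 ± 0.35 SE, adjusted p = 5.52e-05), and without ActA it was at 6.48 and 5.94, a difference of 5.12 (adjusted p = 8.08e-07) between the 2 kinds of pre-ME. DHRS3, which turns retinal back to retinol, fell from 1912 and 898 to 281 and 225 (log2 fold change -2.46 ± 0.33 SE, adjusted p = 9.24e-05), and was under the fold threshold without cjiPSC replicate 1, at -1.79 (adjusted p = 0.000467). ALDH1A1, an enzyme that makes retinoic acid, was 27.5-fold (95% counting interval 4.50 to 1129.5) lower, at 9.42 and 22.2 in cjiPSCs and 0.834 and 0 in pre-ME, a call lost without either pre-ME library. The other 14 of 18 genes tested were not called.

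Calls among posterior neural and neural border genes depended on the cjiPSC library. Of 24 tested 7 were called higher and 3 lower, with a median log2 fold change of 0.97. Without cjiPSC replicate 1 the calls were 5 higher and 2 lower, without replicate 2 they were 12 and 1, and without either pre-ME library no gene was called lower. ZIC1 and PAX3 were near 0 in both cjiPSC libraries. ZIC1, a zinc finger factor of the neural border, went from 0 and 2.96 to 104 and 121 and was 95.9-fold (95% counting interval 26.2 to 797) higher, and PAX3, of the dorsal neural tube and neural crest, went from 2.83 and 1.48 to 81.8 and 89.9 (log2 fold change 5.17 ± 0.66 SE, adjusted p = 5.45e-05). Both were also above the cjiPSCs without ActA, at 74.3 and 59.4 and 73.7 and 76.3. SALL3 went from 2.83 and 16.3 to 138 and 109.5 (log2 fold change 3.92 ± 0.50 SE, adjusted p = 5.23e-05), with 2.96 and 5.41 without cjiPSC replicates 1 and 2, and LHX2 from 20.7 and 41.5 to 159 and 122 (log2 fold change 2.26 ± 0.34 SE, adjusted p = 0.000235). LHX2 was at 1.80 (adjusted p = 0.00671) without cjiPSC replicate 1. FOXB1 went from 8.48 and 65.2 to 211 and 139 (log2 fold change 2.43 ± 0.55 SE, adjusted p = 0.00635), with 1.48 (adjusted p = 0.0519) without cjiPSC replicate 1 and 4.37 (adjusted p = 3.04e-05) without replicate 2, and its call was also lost without pre-ME replicate 1.

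The 3 members called lower each rested on 1 cjiPSC library. OLIG3, a factor of dorsal progenitors, was at 16.01 and 661 in cjiPSCs and 23.4 and 29.5 in pre-ME with ActA. It was called lower (log2 fold change -3.63 ± 0.94 SE, adjusted p = 0.0134), and without cjiPSC replicate 2 its direction was the opposite, with a log2 fold change of 0.68 (adjusted p = 0.348). HES3, a bHLH repressor, was at 28.3 and 282 in cjiPSCs and 20.9 and 18.3 in pre-ME, called lower at -2.88 ± 0.75 (SE, adjusted p = 0.0138) and at -0.51 (adjusted p = 0.524) without that library. TFAP2B was the reverse case, at 119 and 20.8 in cjiPSCs and 14.2 and 14.04 in pre-ME, and its log2 fold change of -2.36 ± 0.61 (SE, adjusted p = 0.0138) became -0.52 (adjusted p = 0.739) without cjiPSC replicate 1. All 3 calls were also lost without either pre-ME library. ZIC2 was not called, at 224 and 2281 in cjiPSCs and 1016 and 942 in pre-ME with ActA. Its log2 fold change was -0.31 (adjusted p = 0.741), and without cjiPSC replicate 2 it had the opposite sign, at 2.12 (adjusted p = 8.32e-06).

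**Figure D4:**
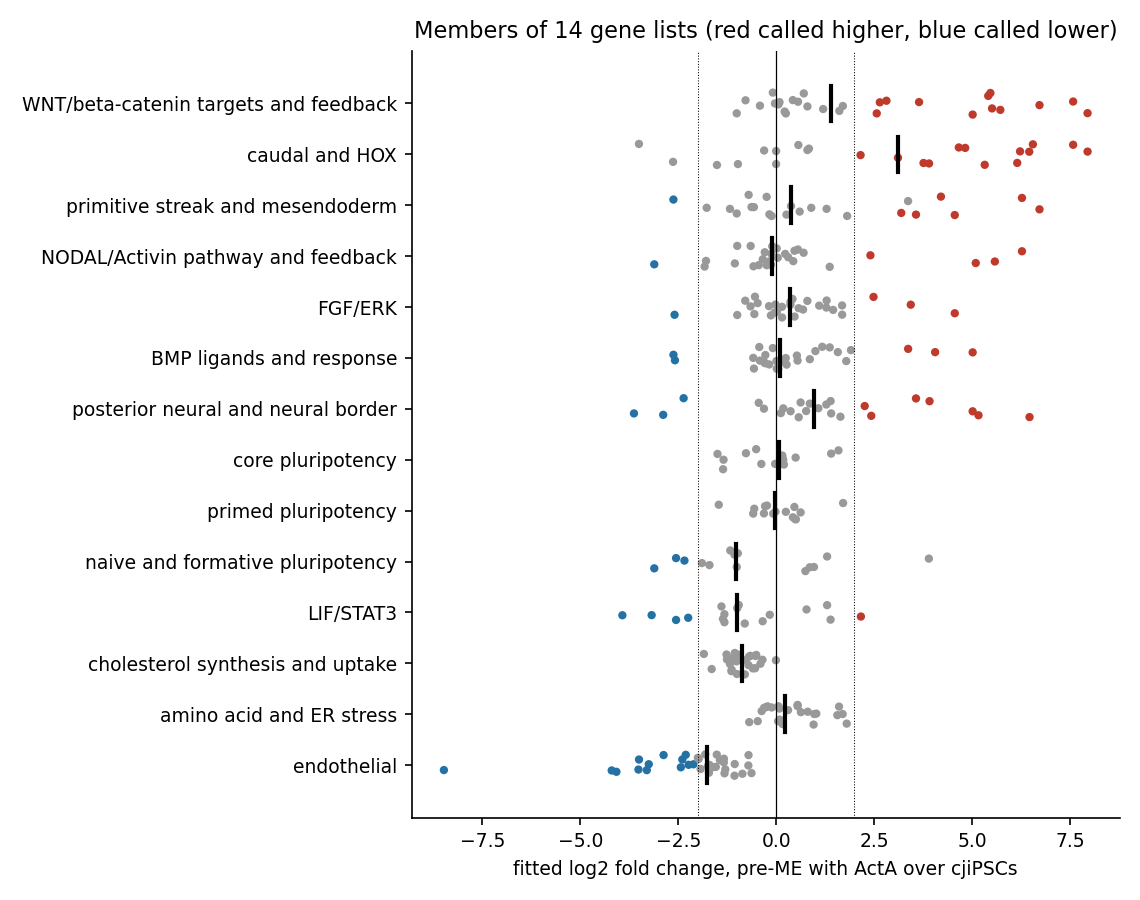
Fitted log2 fold changes of pre-ME with ActA over cjiPSCs (x axis) for the tested members of 14 gene lists, with members called higher in red, called lower in blue and the others in grey, a black bar at each list's median and dotted lines at the fold threshold. The WNT target and caudal lists lie to the right with medians of 1.41 and 3.11, and the cholesterol and endothelial lists lie left of 0 with medians of -0.88 and -1.78.

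None of the 14 core pluripotency genes tested was called, with a median log2 fold change of 0.07. By the adjusted p alone 2 were higher and 3 lower. SALL4, a zinc finger partner of OCT4, rose from 784 and 888 to 2179 and 2192 (log2 fold change 1.41 ± 0.19 SE, adjusted p = 0.000104), and PODXL, a surface sialomucin, from 2512 and 4599.7 to 10779 and 10328 (log2 fold change 1.59 ± 0.25 SE, adjusted p = 0.000403). DPPA4 fell from 2017 and 1181 to 903 and 963 (log2 fold change -0.77 ± 0.18 SE, adjusted p = 0.00751) and UTF1 from 357 and 144 to 96.8 and 99.7 (log2 fold change -1.35 ± 0.40 SE, adjusted p = 0.0268), but without cjiPSC replicate 1 these were at -0.31 (adjusted p = 0.19) and -0.52 (adjusted p = 0.506). The RNA-binding factor LIN28A was at 5314 and 10593 in cjiPSCs and 9025 and 8511 in pre-ME, a log2 fold change of 0.16 (adjusted p = 0.64), which was 0.72 (adjusted p = 0.00171) without cjiPSC replicate 2. PRDM14 was called lower without cjiPSC replicate 1, and PODXL higher without replicate 2. Of 15 genes of primed pluripotency none was called, 1 was higher and 3 lower by the adjusted p alone, and the median was -0.02. In that list 5 genes were more than 2-fold higher in cjiPSC replicate 2 than in replicate 1, and 3 were called higher without that library.

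Genes of naive and formative pluripotency leaned down, with 3 of 14 called lower and none higher, 8 lower and 1 higher by the adjusted p alone, and a median log2 fold change of -1.04. KLF5, a Krüppel-like factor, fell from 1290.5 and 768 to 167 and 183 (log2 fold change -2.55 ± 0.34 SE, adjusted p = 9e-05). ANPEP, the surface aminopeptidase N, fell from 1860.3 and 1269 to 279 and 337 (log2 fold change -2.34 ± 0.19 SE, adjusted p = 7.59e-07), and GDF3 was the other called member. KLF17, TFCP2L1 and FGF4 had at most 1 count in any of the 4 libraries.

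LIF, which signals through STAT3, was present in cjPSCM and was not among the factors added for induction. Of 17 genes of this axis tested 4 were called lower and 1 higher, 10 were lower and 4 higher by the adjusted p alone, and the median was -0.99. The 4 lower calls held without any 1 of the 4 libraries. BCL3, a coactivator of NF-κB, had the largest change, from 432 and 368 to 20.02 and 33.7 (log2 fold change -3.92 ± 0.38 SE, adjusted p = 3.51e-06). OSMR, the receptor of the related cytokine oncostatin M, fell from 426 and 322 to 36.7 and 46.3 (log2 fold change -3.18 ± 0.25 SE, adjusted p = 5.55e-07), and SOCS1, a feedback inhibitor, from 291 and 251 to 53.4 and 60.4 (log2 fold change -2.24 ± 0.26 SE, adjusted p = 2.62e-05). STAT3 itself fell from 3866 and 2861 to 1679 and 1765 (log2 fold change -0.95 ± 0.14 SE, adjusted p = 0.000173), and its target SOCS3 from 942 and 741 to 372 and 294 (log2 fold change -1.32 ± 0.28 SE, adjusted p = 0.00346), both under the fold threshold. The cjiPSC libraries were within 2-fold of each other for these 5 genes. The kinase gene PIM1 went the other way, from 542 and 498 to 2613 and 1999.9 (log2 fold change 2.16 ± 0.16 SE, adjusted p = 4.02e-07, just under the fold threshold without pre-ME replicate 1), as did KLF4, from 39.6 and 34.1 to 100.1 and 80.1 (log2 fold change 1.30 ± 0.31 SE, adjusted p = 0.00853).

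Most genes of cholesterol synthesis and uptake fell by less than the fold threshold. No gene of this list passed the fold threshold, but 20 of 24 were lower and none higher by the adjusted p alone, where 10.3% of all genes tested were lower. The median log2 fold change was -0.88, and all 24 fitted values were below 0, from -1.84 to -0.0056. INSIG1, which holds the sterol-sensing complex in the endoplasmic reticulum, fell from 635 and 766 to 184 and 202 (log2 fold change -1.84 ± 0.17 SE, adjusted p = 2.29e-06), and the synthase HMGCS1 from 5117 and 6422 to 2282 and 2761 (log2 fold change -1.18 ± 0.15 SE, adjusted p = 4.33e-05). The cjiPSC replicates were close to each other in the genes of this list, with 1 of 24 more than 2-fold apart. In TESR medium 22 of 24 were lower by the adjusted p alone, where 17.1% of all genes tested were.

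Of 24 genes of amino acid supply and endoplasmic reticulum stress none was called, and 10 were higher and 1 lower by the adjusted p alone, with a median log2 fold change of 0.23. CHAC1 was called higher without cjiPSC replicate 1. ALDH1L2, a mitochondrial folate enzyme, rose from 77.2 and 94.9 to 298 and 291 (log2 fold change 1.80 ± 0.18 SE, adjusted p = 7.41e-06), SLC7A5, an importer of large neutral amino acids, from 3347 and 3915 to 12297 and 10980.0 (log2 fold change 1.70 ± 0.21 SE, adjusted p = 4.33e-05) and ASNS, asparagine synthetase, from 1381 and 1355 to 2676 and 2838 (log2 fold change 1.03 ± 0.13 SE, adjusted p = 6.61e-05). Among genes of the endoplasmic reticulum arm HSPA5 was at -0.25 (adjusted p = 0.258) and XBP1 at -0.31 (adjusted p = 0.183).

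The endothelial list, chosen after its values had been seen, had 13 of 34 genes called lower and none higher, 30 lower by the adjusted p alone, and a median log2 fold change of -1.78. Its calls were 8 without cjiPSC replicate 1 and 20 without cjiPSC replicate 2. GJA5, a gap junction protein, fell from 1205 and 965 to 75.9 and 118 (log2 fold change -3.50 ± 0.27 SE, adjusted p = 5.65e-07), in cjiPSC libraries that were close to each other. NOS3, endothelial nitric oxide synthase, fell from 210.1 and 145 to 17.5 and 18.3 (log2 fold change -3.30 ± 0.42 SE, adjusted p = 5.17e-05). CDH5, the VE-cadherin gene, was at 11857 and 3403 in cjiPSCs and 1116 and 955 in pre-ME, and its log2 fold change of -2.87 ± 0.41 (SE, adjusted p = 0.000165) was -1.68 (adjusted p = 0.000449) without cjiPSC replicate 1. SOX18 was at 860.0 and 170.5 in cjiPSCs and 40.9 and 50.6 in pre-ME, with -3.51 ± 0.60 (SE, adjusted p = 0.000713), and at -1.88 (adjusted p = 0.0143) without that library. PLVAP, a protein of vessel wall diaphragms, fell from 4237 and 1284 to 369 and 201 (log2 fold change -3.25 ± 0.46 SE, adjusted p = 0.000155), and was at -2.11 (adjusted p = 0.000857) without cjiPSC replicate 1. Both pre-ME libraries were below both cjiPSC libraries for these 5 genes. PECAM1, also a member of the naive and formative pluripotency list, was the most abundant member at 12988 and 7096 in cjiPSCs. It fell to 2839 and 3290.5 (log2 fold change -1.70 ± 0.21 SE, adjusted p = 3.57e-05). KDR, a VEGF receptor, changed least, from 4981 and 3558 to 2688 and 2788 (log2 fold change -0.63 ± 0.19 SE, adjusted p = 0.0273), was at -0.35 (adjusted p = 0.329) without cjiPSC replicate 1, and stood at 558 and 397 in pre-ME without ActA. Without ActA, against the same cjiPSC libraries, 23 genes of the list were called lower, and in TESR medium 8.

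The largest changes were named by rule as the 15 genes with a symbol in each direction that had non-overlapping libraries and at least 10 counts in both libraries of the higher group. Upward, UCP1, GSX2 and MFAP4 had no count in either cjiPSC library. UCP1, the uncoupling protein of brown fat, was at 56.7 and 49.2 in pre-ME with ActA and at least 31.2-fold higher against the floor of 3 counts. GSX2, a homeobox gene of the ventral forebrain, was at 46.7 and 33.7, at least 24.2-fold higher, and had no count without ActA. MFAP4, an extracellular matrix protein, was at 13.3 and 15.4, at least 8.18-fold higher. ADAMTSL2, which binds matrix microfibrils, went from 0.942 and 0 to 231 and 191 and was 375-fold (95% counting interval 66.99 to 14860.0) higher. SP6, a relative of SP5, went from 0.942 and 1.48 to 129 and 112, 107-fold (95% counting interval 29.2 to 887) higher, and LRFN2, a synaptic adhesion protein, from 0 and 2.96 to 85.9 and 43.5, 60.9-fold (95% counting interval 16.5 to 508) higher. These genes were thus at or near 0 in cjiPSCs and present in both pre-ME libraries. GAD1, which makes the transmitter GABA, rose from 0.942 and 8.89 to 266 and 145 (log2 fold change 5.65 ± 0.56 SE, adjusted p = 5.17e-06), and was at 4.58 without cjiPSC replicate 1 and at 7.64 without replicate 2, which leaves 1 count in the cjiPSCs. Also among the 15 were CDX1, CDX2, CDX4, SP5, ZIC1, HOXA9 and NODAL.

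Downward, TSLP, a cytokine, and SCML4 had no count in pre-ME with ActA and were at 23.5 and 35.6 and 21.7 and 29.6 in cjiPSCs, at least 17.97-fold and at least 15.8-fold lower. LYVE1, a hyaluronan receptor of lymphatic endothelium, was at 409.8 and 41.5 in cjiPSCs and 0 and 1.40 in pre-ME, 509-fold (95% counting interval 90.99 to 20166) lower, with cjiPSC libraries that were far apart. HDC, histidine decarboxylase, was 96.8-fold (95% counting interval 16.9 to 3868) lower at 48.04 and 54.8 in cjiPSCs and 0 and 1.40 in pre-ME, and was at 38.9 and 86.2 without ActA. S100A4 was 46.2-fold (95% counting interval 7.85 to 1868) lower at 25.4 and 22.2 in cjiPSCs and 0 and 1.40 in pre-ME, a call lost without pre-ME replicate 1. All 5 were thus at 0 or 1 count in each pre-ME library. The collagenase MMP13 fell from 158 and 189.7 to 4.17 and 7.02 (log2 fold change -4.98 ± 0.47 SE, adjusted p = 2.93e-06), and the elastase MMP12 from 246 and 405 to 7.51 and 19.7 (log2 fold change -4.65 ± 0.48 SE, adjusted p = 8.23e-06). SOST, the WNT antagonist sclerostin, fell from 931 and 586 to 45.9 and 35.1 (log2 fold change -4.19 ± 0.35 SE, adjusted p = 9.29e-07), and the sterol exporter ABCG1 from 1204 and 379 to 44.2 and 54.8 (log2 fold change -4.01 ± 0.52 SE, adjusted p = 6.36e-05).

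Beside these 9 and ALDH1A1 the rule named SSTR4, TMEM71, C4H6orf58, DLL4 and GJA4. SSTR4, a somatostatin receptor, was at 91.4 and 57.8 in cjiPSCs and 4.17 and 1.40 in pre-ME (log2 fold change -4.55 ± 0.67 SE, adjusted p = 0.000188). DLL4, a NOTCH ligand, fell from 429 and 114 to 17.5 and 14.04 (log2 fold change -4.08 ± 0.60 SE, adjusted p = 0.000186), and GJA4 from 418 and 168 to 14.2 and 18.3 (log2 fold change -4.20 ± 0.56 SE, adjusted p = 8.13e-05). TMEM71 was at 20.7 and 51.9 in cjiPSCs and 0.834 and 2.81 in pre-ME, and C4H6orf58 at 15.1 and 25.2 in cjiPSCs and 0.834 and 0 in pre-ME. Of the genes with the largest falls MMP12, MMP13, SOST, TSLP and HDC were within 2-fold between the cjiPSC libraries, while DLL4, GJA4, ABCG1 and LYVE1 were more than 2-fold higher in cjiPSC replicate 1 than in replicate 2. Without cjiPSC replicate 1 the log2 fold changes were -2.79 for DLL4, -3.36 for GJA4 and -2.92 for ABCG1, and MMP12 was at -4.02 and -5.38 without pre-ME replicates 1 and 2. All 9 were called without any 1 of the 4 libraries.

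The other lists had few calls, with medians between -0.42 and 0.47. Of 24 NOTCH genes 2 were called lower (DLL4 and HES3), of 22 hypoblast and endoderm genes 2 (GATA6 and FRZB), of 23 fibroblast and stroma genes 2 (LUM and S100A4) and of 38 axon guidance genes 2 (EFNA1 and SEMA5A), with none higher in any of these lists. One gene was called lower, and none higher, of 36 collagen and basement membrane genes (ITGB3), of 29 glycolysis and hypoxia genes (ADM), of 22 cadherin and adhesion genes (CDH5) and of 19 amnion and surface ectoderm genes (TFAP2B). Of 27 paraxial, lateral and mesenchymal mesoderm genes OSR1 was called higher and FOXC2 lower, of 27 cell cycle genes GADD45B was called higher, and of 9 trophoblast genes CDX2. No gene was called of 8 genes of DNA methylation, where none passed the adjusted p. Of 18 genes of primate primordial germ cells none was called, and 3 were higher and 6 lower by the adjusted p alone. Each leave-out gave 1 lower call in that list, DPPA3 without cjiPSC replicate 1 or pre-ME replicate 2 and PRDM1 without cjiPSC replicate 2 or pre-ME replicate 1, and ALPL was called higher without cjiPSC replicate 2. In the SRF/YAP list 1 of 23 was called, the immediate early gene FOSB, which rose from 47.1 and 20.8 to 699 and 416 (log2 fold change 3.98 ± 0.62 SE, adjusted p = 0.000327). Over the leave-outs the log2 fold change of FOSB ran from 3.54 to 4.79. ADM, the vasoactive peptide adrenomedullin, fell from 784 and 424 to 113 and 94.1 (log2 fold change -2.52 ± 0.34 SE, adjusted p = 0.000105), and the integrin gene ITGB3 from 260.0 and 280.2 to 27.5 and 42.1 (log2 fold change -2.97 ± 0.54 SE, adjusted p = 0.00116). GADD45B, a stress-induced gene, rose from 81.01 and 136 to 816 and 535 (log2 fold change 2.69 ± 0.40 SE, adjusted p = 0.000242) and was at 89.02 and 82.2 without ActA. Higher calls were more numerous without cjiPSC replicate 2, with 5 in the collagen and basement membrane list, 5 in the mesoderm list, 4 in the cadherin list, 2 each in the axon guidance and fibroblast lists and 1 each in the NOTCH and glycolysis lists. The collagen list had 6 genes higher and 12 lower by the adjusted p alone. Without cjiPSC replicate 1 it had 2 higher calls, the fibroblast list had 1, and EGR1 and FOS joined FOSB in the SRF/YAP list. The calls of ADM, EFNA1, LUM, SEMA5A, FOXC2 and OSR1 were lost without cjiPSC replicate 1, at log2 fold changes of -1.98 (adjusted p = 0.00126), -1.02 (adjusted p = 0.0301), -1.33 (adjusted p = 0.00137), -1.21 (adjusted p = 0.0176), -1.63 (adjusted p = 0.208) and 1.39 (adjusted p = 0.308), and that of FRZB without cjiPSC replicate 2, at -0.31 (adjusted p = 0.75).

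The same induction was made from cjiPSCs kept in TESR medium, and these 4 libraries share none with the comparison above. In them the share of reads in no annotated gene was 10.6% and 13.3% in cjiPSCs and 19.5% and 19.3% in pre-ME with ActA. Its part in the TESR fold changes was not tested. There 701 genes (4.44%) were called higher and 399 (2.53%) lower. Of the 224 genes higher in cjPSCM 126 were also called higher in TESR, which is 56.2% of the first list and 18% of the second, and 4 were called lower there. Of the 259 lower in cjPSCM 80 were also called lower in TESR, 30.9% and 20.1% of the lists, and 2 were called higher. The TESR log2 fold change was above 0 for 88.4% of genes called higher in cjPSCM and below 0 for 80.3% of those called lower, against 48.8% and 51% of all genes tested. Over genes the log2 fold changes correlated with r = 0.51, as a description, since genes are not independent and all libraries share a cell line and a protocol. SP5, MSX1, HOXA9 and FGF8 rose in both, with TESR log2 fold changes of 5.57, 5.46, 6.98 and 6.20.

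**Figure D5:**
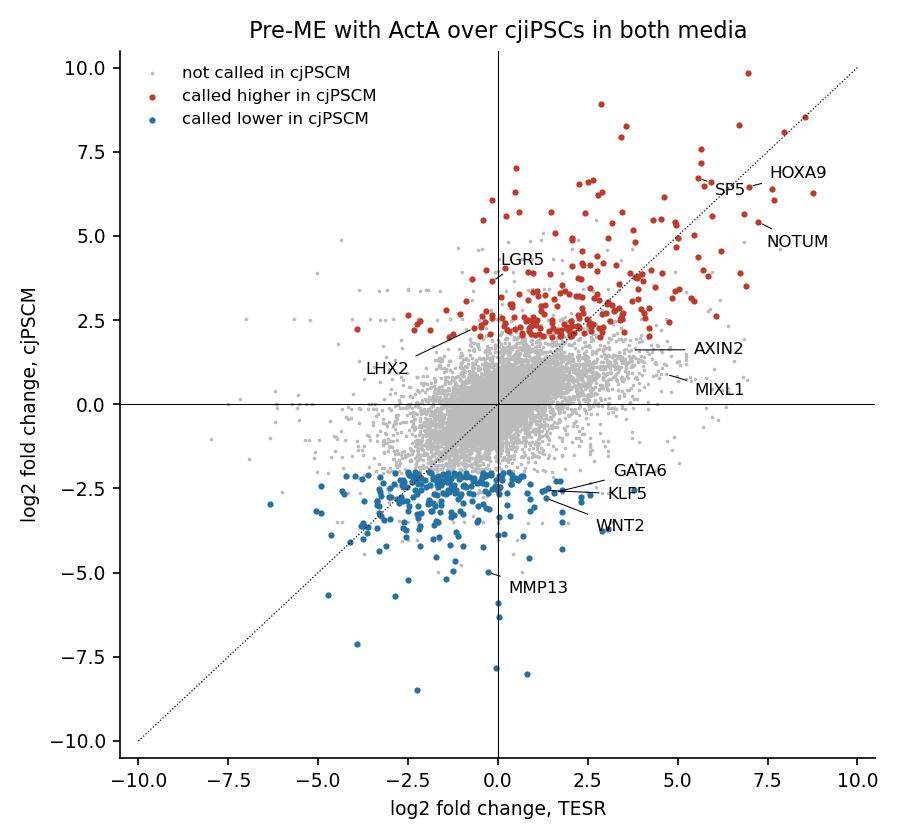
Log2 fold change of pre-ME with ActA over cjiPSCs in TESR medium (x axis) and in cjPSCM (y axis) for 15797 genes, with the genes called in cjPSCM in colour and a dotted line of equal change. SP5 and HOXA9 lie near the line, GATA6, KLF5 and WNT2 lie below 0 in cjPSCM and above 0 in TESR, and AXIN2 and MIXL1 have higher values in TESR.

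The difference of both responses was tested as an interaction, and 979 genes (6.2%) passed an adjusted p of 0.05, among them 45 of the genes called higher and 47 of those called lower in cjPSCM. GATA6, which fell in cjPSCM, had 1.57 in TESR, a difference of -4.19 (adjusted p = 2.81e-05). Its levels in TESR were 136 and 182 in cjiPSCs and 582 and 337 in pre-ME, so its starting level was lower there than in cjPSCM. KLF5 and WNT2 gave differences of -3.86 (adjusted p = 0.000266) and -4.11 (adjusted p = 0.0162). LGR5 rose in cjPSCM and had -0.16 in TESR, a difference of 3.81 (adjusted p = 0.00046), and in TESR it was at 496 and 252 before and 374 and 303 after induction. AXIN2 went the other way, with 3.70 in TESR and a difference of -2.09 (adjusted p = 2.81e-05). Its level was 159.8 and 214 in cjiPSCs in TESR and 2383 and 2366 after induction. MIXL1 rose by 4.67 in TESR, from 4.41 and 1.49 to 87.6 and 95.5, a difference of -3.77 (adjusted p = 0.00448). In SP5, NODAL and HOXA9 no difference passed the threshold, with values of 1.15, -2.50 and -0.52 (adjusted p = 0.084, 0.563 and 0.835), which does not show that they were equal.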

How the data were processed

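RNA was measured by poly(A) RNA-seq in 20 libraries of 1 marmoset cell line, 10 groups of 2 biological replicates, grouped by their labels. Per the labels and the study's methods the authors checked reads with FastQC 0.11.8, aligned them with STAR 2.7.0a to calJac4 and counted them per gene with HTSeq-count 0.11. The strand setting and annotation release are not given in the sources used here, so genes that overlap, antisense genes and near-identical copies may share or lose reads. The deposited raw counts were used for tests, and levels were read from the deposited normalised values, in which the authors had divided each count by a DESeq2 size factor (a signal with no upper limit).

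Counts on genes ranged from 4784964 to 22067099 per library, and rows that name no gene were left out. In the 4 libraries of the comparison these held reads in no annotated gene (12.2% to 20.5% of counted reads) and ambiguous reads (0.284% to 0.300%). Counts were tested in R 4.3.3 with edgeR 4.0.16 (TMM scaling, filterByExpr by group, quasi-likelihood fit over all 20 libraries with 1 coefficient per group and 10 residual degrees of freedom) and Benjamini-Hochberg adjustment over 15797 genes. Tests are two-sided, and SE is the log2 fold change divided by the square root of F. The p-values measure the spread between replicates of 1 line, estimated over all 10 groups together. The cjiPSC replicates in cjPSCM stood further apart than those of any other group, so the p-values may understate the spread of that group. With edgeR on the 4 libraries alone 46 genes were called higher and 61 lower. The difference between media was a contrast of the same fit. Where a group had no count over both libraries, the fold is a bound against a floor of 3 counts, and with 1 to 3 counts it is a ratio with an exact 95% interval, both covering counting error only. CPM are counts scaled to the library's total on genes. Lists and named genes were chosen with earlier results of these data known, and the endothelial list after its values were seen. Named genes were list members and the 15 genes with a symbol that had the largest change each way, no overlap between libraries and at least 10 counts in both libraries of the higher group. Some further list members were named beside counts of 5 or fewer.

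Alternatives were DESeq2 1.42.0, other sets of libraries, size factors, filters and fold thresholds, a replicate block and leaving out each library. On simulated counts each tool recovered 200 of 200 genes changed 8-fold, over 20 and over 4 libraries. The simulation gave all groups the same spread and changed only genes above the median level. It therefore checks the code and cannot show how the wider spread of the cjiPSC replicates acts on the calls. Columns of sorted cells served only to estimate the spread. Promoter motifs were not analysed here, and some genes counted in the lists are not reported here by name.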

Additional observations from a re-analysis of the deposited data

Results flagged for a closer look

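Log2 fold changes of pre-ME with ActA over cjiPSCs were compared between cjPSCM and TESR as cjPSCM minus TESR in edgeR. Of 140 named genes 38 passed an adjusted p of 0.05 for that difference, where 979 of all 15797 genes tested (6.2%) did. Of the 140 genes 94 were called in cjPSCM, so the choice of genes favours larger changes in cjPSCM than in TESR. The numbers of genes in the groups below are therefore no result about the media. Adjusted p ranged from 2.81e-05 for GATA6 to 0.0451 for SEMA5A. Among genes that rose in cjPSCM and rose less or did not pass the test in TESR the difference was 3.81 for LGR5, 4.52 for CDX2, 3.10 for EOMES, 3.87 for BMP7, 2.29 for NOG, 1.70 for IL17RD, 3.08 for SALL3, 2.92 for LHX2, 1.72 for ALDH1L2, 1.45 for SLC7A5, 4.24 for LRFN2 and 6.51 for MFAP4.

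Among genes that fell in cjPSCM and fell less, did not pass the test or rose in TESR, the difference was -4.19 for GATA6, -3.86 for KLF5, -4.62 for BCL3, -4.11 for WNT2, -3.81 for BMP2, -3.43 for GDF7, -2.87 for GDF3, -2.53 for DHRS3, -1.89 for ANPEP, -1.44 for SPRED3, -1.34 for OSMR and -1.82 for SOCS3. It was -4.70 for MMP13, -3.47 for MMP12, -2.86 for SOST, -2.35 for ADM, -1.80 for SEMA5A, -0.92 for ACVR1B and -7.76 for SCML4. MFAP4 and SCML4 had no count in 1 group of cjPSCM, so their fitted differences depend on the prior count.

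The feedback genes AXIN2 and NOTUM rose in both media and more in TESR, with differences of -2.09 for AXIN2 and -1.83 for NOTUM. SKIL and MIXL1 rose in TESR and did not pass the test in cjPSCM, with differences of -1.25 for SKIL and -3.77 for MIXL1. KDR fell in both media and more in TESR, with 1.19. DUSP6 and SPRY4 fell in TESR and did not pass the test in cjPSCM, with 1.37 for DUSP6 and 1.36 for SPRY4. AXIN2 was at 672 and 808 in cjiPSCs in cjPSCM and 159.8 and 214 in TESR, and at 2316 and 2149 and 2383 and 2366 after induction, so the levels after induction were close and those before it were not. The starting media differed in CHIR, the tankyrase inhibitor, LIF and other factors, and these cannot be told apart. The larger spread of the cjiPSC libraries in cjPSCM enters each of these values, and its part was not tested.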

How the results depend on the processing

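The main counts were 224 higher and 259 lower. With DESeq2 on the 4 libraries they were 100 and 164, with edgeR on the 4 libraries 46 and 61, and with a log2 fold change beyond 1 they were 534 and 843. A glmTreat test against a log2 fold change of 1 gave 130 higher. Leaving out 1 library gave 130 to 962 higher and 152 to 389 lower, with the extremes without cjiPSC replicates 1 and 2, and 225, 446, 276 and 368 of the 483 calls were kept without cjiPSC replicate 1, cjiPSC replicate 2, pre-ME replicate 1 and pre-ME replicate 2. A lone library was assumed to vary like the other groups. OLIG3 ranged from -4.64 to 0.68 and ZIC2 from -1.19 to 2.12 over the leave-outs, both with the opposite direction without cjiPSC replicate 2. Of 94 called genes named, 61 kept the call in each leave-out. Under DESeq2 on 20 libraries, the 12 unsorted libraries, size factors, no filter on low counts and a mean of at least 1 CPM, both counts stayed within 1.5 times the main ones. The causes were not tested beyond the libraries and genes that each setting leaves.

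Replicate numbers are shared by label only. Deviations of same-numbered libraries correlated at -0.14 between cjiPSCs and pre-ME with ActA in cjPSCM and at -0.04 in TESR. Between pre-ME with and without ActA in cjPSCM they correlated at 0.23. A replicate block gave 221 higher and 255 lower over 20 libraries, 83 and 105 on the 4 libraries alone, and 221 and 254 with crossed numbers, a choice made after seeing the data. Where a gene has a few counts, depth limits the fold to a bound or a wide interval.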

Other observations

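With against without ActA 2 of 24 posterior neural and neural border genes were called higher and 3 lower by edgeR, and of 19 amnion and surface ectoderm genes none higher and 1 lower, with 4 higher and 2 lower by the adjusted p alone. The genes given next were among the lower ones. They were singled out after their values were seen, and others of both lists went the opposite way. TFAP2A, a factor of surface ectoderm and neural crest, was at 12.2 and 42.99 in cjiPSCs, 24.2 and 15.4 in pre-ME with ActA and 187 and 198 without it, a log2 fold change of -3.24 (adjusted p = 0.00026) with against without ActA by edgeR. OLIG3 was at 269 and 303 without ActA, with a difference of -3.48 (adjusted p = 0.0159), and HES3 at 278 and 325, with -3.94 (adjusted p = 0.00175). For OLIG3 the levels without ActA lay between those of the cjiPSC replicates.

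Of the 224 genes called higher 104 were more than 2-fold higher in cjiPSC replicate 2 than in replicate 1 and 25 the other way. Over all 15797 genes tested these numbers were 2245 and 880. Of the 224 genes 46 had only 1 to 3 counts in the cjiPSC libraries, where 1 count can make such a difference. Of the 259 called lower 93 were more than 2-fold higher in replicate 1 and 11 in replicate 2. Replicate 2 was thus the cjiPSC library nearer to pre-ME in most called genes that differed between the cjiPSC libraries. For genes called higher this is the direction in which all genes tested leaned, and for genes called lower it is the opposite one.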
